A study of Arabidopsis thaliana with 4 samples.

Results

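The transcripts described here encode 10 proteins that take chlorophyll apart in leaves of Arabidopsis thaliana. The genes were taken by locus for known roles in the pathway, with earlier results of these data known to those who chose them: the chlorophyll b reductases NYC1 and NOL, the magnesium-removing proteins SGR1 (also called NYE1), SGR2 and SGRL, the chlorophyllases CLH1 and CLH2, pheophytinase (PPH), pheophorbide a oxygenase (PAO) and red chlorophyll catabolite reductase (RCCR, also called ACD2). All 10 were listed among the 33059 features of the series, and all 10 passed the filter, which asked for an average level of 1 TPM or more, as did 20010 features in all. TPM is a relative transcript level that is corrected for length and makes all libraries add up to one total. Messenger RNA was sequenced from rosette leaves of plants aged 28 days, with 2 libraries from wild-type plants (WT) and 2 from plants that overexpressed ERF4 (OE), driven by the 35S promoter of a plant virus, CaMV, which is active in most tissues. ERF4 is an ethylene response factor that acts as a repressor, so the comparison asks which leaf transcripts differ when its level is raised. The labels do not say how many transgenic lines or separate plants the libraries stand for, so a p-value here reflects the scatter of these libraries alone, and that scatter may be technical.

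Chlorophyll breakdown removes a pigment that is harmful when free, and it is best known from leaf senescence, when green leaves turn yellow. Conversion of chlorophyll b to chlorophyll a starts with the reductases NYC1 and NOL, and SGR1 and SGR2 then remove the central magnesium to give pheophytin. PPH cuts off the phytol tail, PAO opens the ring and RCCR reduces the red product, after which colourless catabolites go to the vacuole. Chlorophyllases can also cut off phytol, but in Arabidopsis they are not needed for the breakdown of senescence.

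ERF4 (AT3G15210) was at 9.68 and 10.6 TPM in WT and at 24.5 and 28.8 TPM in OE, which is the direction the labels give, although it did not pass the threshold itself (log2 fold change 1.31, SE 0.351, limma adjusted p = 0.381). Depth per library is unknown, since TPM keeps no read number. Leaf genes for Rubisco and light harvesting were abundant in all 4 libraries (summed level of the 7 leaf mesophyll markers 28851 to 72673 TPM). Flower markers were near 0 (summed level of 4 genes 0.87 to 2.43 TPM). The root β-glucosidase PYK10 was at 2785 to 4116 TPM in every library, while the other root markers ranged from 0 for the nitrate transporter NRT2.1 to 20.5 TPM for PHT1;4. The leaf, root, guard cell and vascular lists had 0 members past the threshold, the last 2 with summed levels of 67.7 to 91.2 TPM over 4 genes and 89.7 to 110 TPM over 4 genes. Their members with the smallest p were the photosystem gene PSAD1 (2236 to 4359 TPM over the libraries) and the antenna gene LHCA1 (1610 to 6168 TPM) for leaf, RHD6 (1.73 to 3.23 TPM) and PHT1;4 for root, MYB60 (35.2 to 58.1 TPM) and KAT1 (8.82 to 12.96 TPM) for guard cells, and XCP1 (30.3 to 46.6 TPM) and SUC2 (28.9 to 56.8 TPM) for the vasculature.

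The results turn mainly on CLH1 and NYC1, whose levels stood lowest in OE relative to WT, and on NOL, the partner of NYC1. Their promoters are printed because ERF4 is known to bind the GCC box, with the letters GCCGCC, and related factors bind the DRE core, with the letters CCGAC. The windows are the 300 bases before the annotated gene start in the RefSeq assembly TAIR10.1, 5′ to 3′ on the gene's own strand. Both strands were searched for these motifs and for the G-box CACGTG and the ABRE core ACGTG, which overlaps the G-box. Capitals mark matches to any of them. The authors' genome build is not given in the sources used here, so these coordinates belong to the RefSeq assembly alone. The CLH1 window is chr1:6805093-6805392 on the minus strand and that of NYC1 is chr4:7687007-7687306 on the minus strand.
CLH1: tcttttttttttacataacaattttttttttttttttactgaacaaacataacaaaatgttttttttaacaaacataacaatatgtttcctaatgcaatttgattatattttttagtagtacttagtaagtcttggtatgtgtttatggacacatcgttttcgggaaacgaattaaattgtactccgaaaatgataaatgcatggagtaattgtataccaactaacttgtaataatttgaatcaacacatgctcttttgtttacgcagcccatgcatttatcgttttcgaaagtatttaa
NYC1: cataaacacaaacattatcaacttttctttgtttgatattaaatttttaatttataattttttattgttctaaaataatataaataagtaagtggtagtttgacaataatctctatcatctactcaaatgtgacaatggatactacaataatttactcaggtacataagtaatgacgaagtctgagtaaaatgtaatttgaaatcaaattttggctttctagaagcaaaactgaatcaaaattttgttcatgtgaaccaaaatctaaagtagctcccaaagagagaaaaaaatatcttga
For NOL and SGR2 only the 30 bases around their G-box are shown, from chr5:1434744-1434773 and chr4:7156030-7156059, both on the plus strand.
NOL: atatGCCGCCACGTGgcatttaactctctc
SGR2: attaaagcCACGTGtgaaccttaatctcac

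None of the 4 motifs was in the windows of CLH1 or NYC1. The GCC box was in 1 of 10 windows, that of NOL, where it starts 26 bases before the gene start and runs into a G-box that starts 21 bases before it. The share of all 27443 protein-coding promoters of this length with a GCC box was 2.26%. The DRE core was in 0 of 10 windows, beside 13.9% of all promoters. The G-box was in 2 of 10, NOL and SGR2, beside 7.09%, and the ABRE core in 3 of 10, with SGRL as the other gene, beside 25.6%. The windows of NOL, SGR1 and PAO overlap exon sequence of the neighbouring genes AT5G04895, AT4G22930 and AT3G44870, in that order. A match describes letters, and its absence says only that these letters are not in this window.

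Between the genotypes 0 of the 10 genes passed the threshold of the comparison over all features (limma on log2(TPM + 1), Benjamini-Hochberg adjusted p of 0.05), where 0.0900% of all tested features passed. At that share a list of this size, or of the size of the other lists named here, would seldom hold a gene past the threshold. At an unadjusted p under 0.05 there were 2 of 10, CLH1 and NYC1, beside 5.30% of all tested features. The mean of the same 2 genes was at least 2-fold lower in OE, beside 4.82% of features, and 0 of 10 were at least 2-fold higher, beside 4.30%. In 3 of 10 (CLH1, NYC1 and RCCR) both OE libraries lay below both WT libraries, an order that 14.2% of features had, and in 1 of 10 (PPH) both lay above, as in 13.7% of features. The groups overlapped in the other 6. The median log2 fold change of the 10 genes was 0.0014, beside -0.016 over all tested features. In bulk leaves fewer cells that hold a transcript and less of it per cell cannot be told apart.

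**Figure D1:**
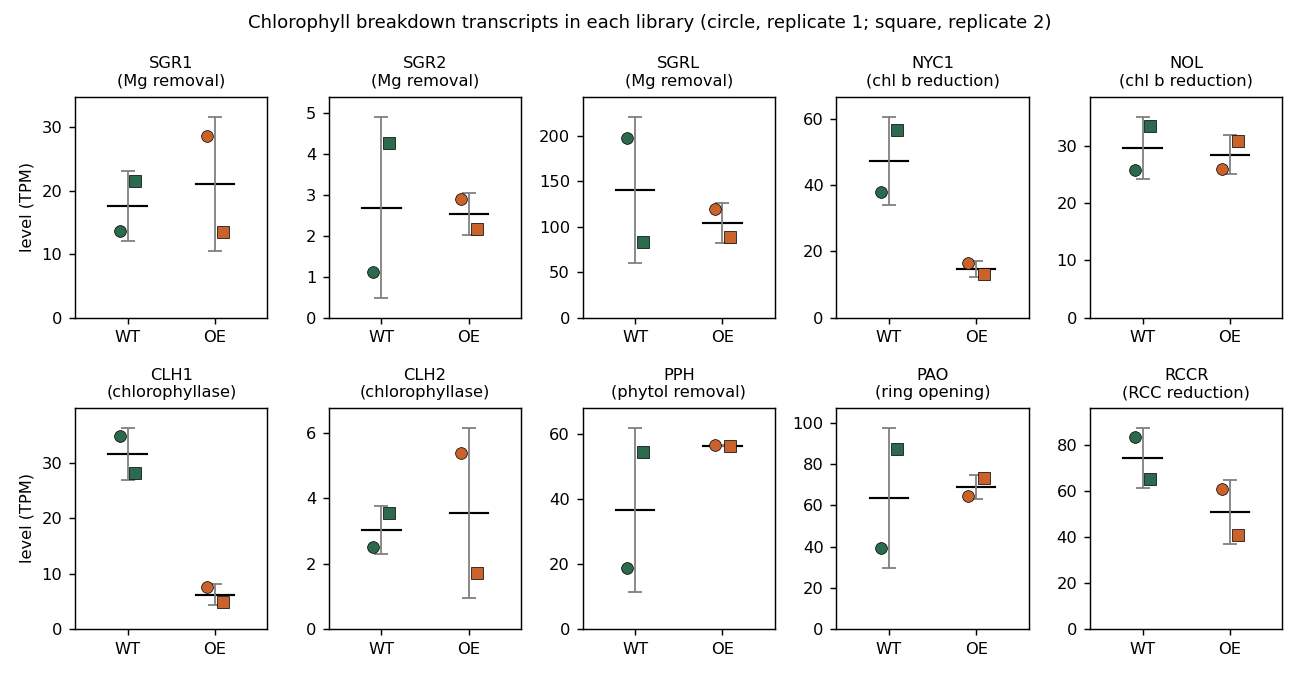
Level of each chlorophyll breakdown transcript in TPM (vertical axes, each from 0) in the 2 WT and 2 OE libraries. Points are libraries, black lines are means and bars are SD (n = 2). CLH1 and NYC1 have both OE libraries well below both WT libraries, and WT replicate 1 of PPH lies far below the other 3 libraries.

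CLH1 (AT1G19670), a chlorophyllase known to be induced by jasmonate and wounding, was at 34.9 and 28.3 TPM in WT and at 7.53 and 4.89 TPM in OE. The groups were far apart, since the lower WT library was several times the higher OE library. The mean was 31.6 ± 4.70 TPM for WT against 6.21 ± 1.87 TPM for OE (SD, n = 2), 5.08-fold lower in OE. As log2(TPM + 1) this was a difference of -2.19 (SE 0.371, 95% interval -3.01 to -1.37). It ranked 29 of 20010 by p and did not pass the threshold (limma, Benjamini-Hochberg adjusted p = 0.0771). In fits that left out 1 library it stayed between -2.46 and -1.93. With all 4 libraries kept, CLH1 passed the threshold with a filter at 5 TPM, a robust prior or a replicate block. It did not pass under quantile normalization or median-ratio scaling (limma adjusted p = 0.625 and 0.602).

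CLH2 (AT5G43860), the other chlorophyllase of Arabidopsis, was at 2.52 and 3.55 TPM in WT and at 5.39 and 1.70 TPM in OE. The OE libraries enclosed both WT libraries, and the log2 fold change of 0.054 had a 95% interval from -1.03 to 1.13. CLH1 made up 93.3% and 88.8% of the summed chlorophyllase TPM in WT against 58.3% and 74.2% in OE. This share does not depend on how a library was scaled. It was 24.8 percentage points below WT in OE on average, with both OE libraries below both WT libraries (exact two-sided permutation test p = 0.333, the smallest that 2 against 2 allows). The share also moves with CLH2, which was low. CLH1 was lower in OE replicate 2 than in OE replicate 1 (4.89 against 7.53 TPM), yet its share was higher there. The coding sequences of the pair are 63.5% identical over 895 aligned bases in TAIR10.1, and the longest stretch they share is 13 bases.

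NYC1 (AT4G13250), the chlorophyll b reductase needed to degrade the main light-harvesting complex in senescence, was at 37.9 and 56.7 TPM in WT and at 16.4 and 13.1 TPM in OE. Again the groups were well apart, with the lower WT library above both OE libraries by a wide margin. The mean was 47.3 ± 13.3 TPM for WT against 14.7 ± 2.34 TPM for OE (SD, n = 2), 3.21-fold lower in OE. The log2 fold change was -1.60 (SE 0.377, 95% interval -2.43 to -0.77), rank 113 of 20010 by p, and it did not pass (limma, Benjamini-Hochberg adjusted p = 0.259). Without 1 library at a time it ran from -1.88 to -1.31, and 2 of 14 alternative fits put it past the threshold.

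NOL (AT5G04900), whose protein binds NYC1 in rice, was at 25.9 and 33.6 TPM in WT and at 26.1 and 30.9 TPM in OE. Its OE libraries lay inside the WT range. The log2 fold change was -0.051 (95% interval -0.85 to 0.75), an interval that stays within 1 log2 unit of 0 on either side. NYC1 was 59.4% and 62.8% of the summed TPM of the pair in WT and 38.5% and 29.7% in OE, so the more abundant of the 2 reductases was NYC1 in both WT libraries and NOL in both OE libraries. The mean difference in this share was -27.0 percentage points (exact two-sided permutation test p = 0.333, the smallest possible). The 2 coding sequences are 65.3% identical and share at most 14 bases in a row.

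**Figure D2:**
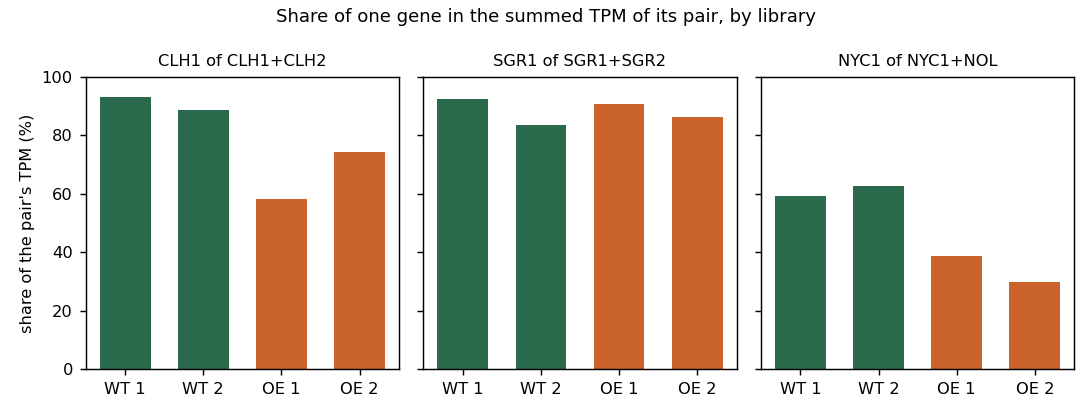
Share of CLH1, SGR1 and NYC1 (vertical axis, percent) in the summed TPM of their pair, 1 bar per library. The shares of CLH1 and NYC1 are lower in both OE libraries than in both WT libraries, while that of SGR1 lies between 83.5% and 92.4% throughout.

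Transcripts of the magnesium-removing proteins showed no such order. SGR1 (AT4G22920), the main stay-green protein of senescing leaves, was at 13.7 and 21.6 TPM in WT and at 28.6 and 13.6 TPM in OE. The OE libraries were both the highest and the lowest, and the log2 fold change was 0.19 (SE 0.432, adjusted p = 1.0 by limma). It changed sign, to -0.12, when WT replicate 1 was left out and, to -0.32, when OE replicate 1 was. SGR2 (AT4G11910), its close paralog, was at 1.12 and 4.26 TPM in WT and at 2.89 and 2.16 TPM in OE, inside the WT range.

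SGR1 took 92.4% and 83.5% of the TPM of the SGR1 and SGR2 pair in WT and 90.8% and 86.3% in OE, with the OE values inside the WT range (exact two-sided permutation test p = 1). These coding sequences are 80.1% identical and share at most 28 bases in a row, a longer run than in the other pairs. Whether any reads fit both copies was not tested, so the split between them may be less certain. SGRL (AT1G44000), a more distant relative that acts on chlorophyllide, was at 197 and 83.2 TPM in WT and at 119 and 88.5 TPM in OE. The gap between the WT libraries, 2.37-fold, was wider than that between the genotypes. Its log2 fold change was -0.32 and turned to 0.30 without WT replicate 1, while without WT replicate 2 it was -0.93.

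PPH (AT5G13800), which removes phytol from pheophytin, was at 18.8 and 54.5 TPM in WT and at 56.6 and 56.3 TPM in OE. WT replicate 1 was low and the other 3 libraries were nearly equal, so the order of OE above WT rests on a small gap to WT replicate 2. The log2 fold change was 0.79 (SE 0.482, limma adjusted p = 1.0). Leaving out WT replicate 1 gave 0.050, and leaving out WT replicate 2 gave 1.53.

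PAO (AT3G44880), the Rieske-type oxygenase that opens the ring, was at 39.4 and 87.6 TPM in WT and at 64.7 and 73.0 TPM in OE, again with WT replicate 1 lowest. The log2 fold change of 0.22 (SE 0.446) became -0.34 without WT replicate 1 and 0.79 without WT replicate 2. RCCR (AT4G37000), whose loss is known to cause cell death through red catabolites, was at 83.7 and 65.2 TPM in WT and at 60.9 and 41.0 TPM in OE. All OE values lay below the WT values, but by a small margin, and the gap between the OE libraries was about as wide as the genotype difference (log2 fold change -0.55, SE 0.396, limma adjusted p = 1.0). Leaving out OE replicate 2 gave -0.28 and leaving out OE replicate 1 gave -0.83.

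**Figure D3:**
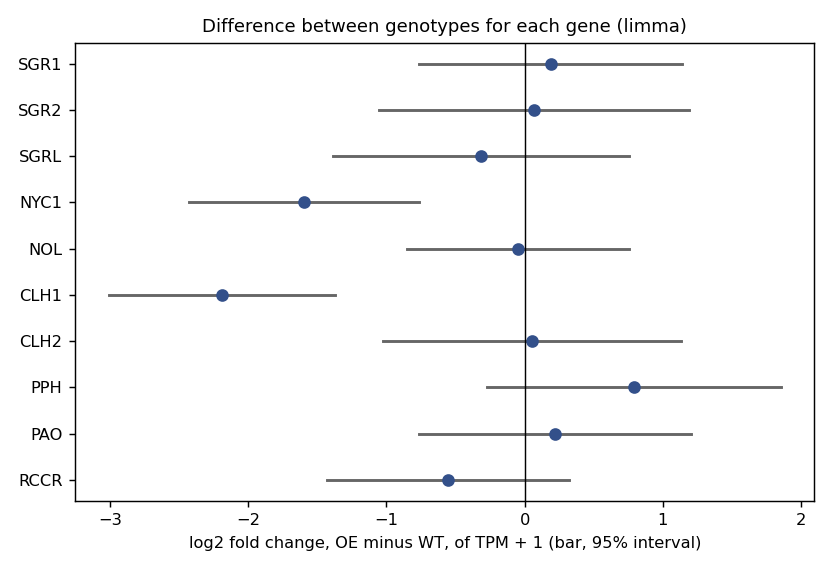
Log2 fold change of OE minus WT on the log2(TPM + 1) scale (horizontal axis) for the 10 genes, from limma. Points are estimates and bars are 95% intervals, which include 0 for all genes but CLH1 (-3.01 to -1.37) and NYC1 (-2.43 to -0.77).

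Levels of different genes can be ordered on the TPM scale, since it corrects for length. In WT the means ran from SGRL (140 ± 80.6 TPM) through RCCR, PAO, NYC1, PPH, CLH1 and NOL to SGR1 (17.6 ± 5.55), CLH2 (3.04 ± 0.728) and SGR2 (2.69 ± 2.22 TPM; SD, n = 2). Neighbours in that order had overlapping ranges except NOL above SGR1 and SGR1 above CLH2. In OE the order was SGRL (104 ± 21.7 TPM), PAO, PPH, RCCR, NOL, SGR1, NYC1, CLH1, CLH2 and SGR2. There SGRL and PAO, PAO and PPH, RCCR and NOL, and NYC1 and CLH1 did not overlap. NYC1 was rank 4 of 10 by level in both WT libraries and rank 7 of 10 in both OE libraries, and CLH1 was rank 5 and 7 in WT and rank 8 in both OE libraries. The 10 genes summed to 455 and 438 TPM in WT and to 388 and 325 TPM in OE.

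Libraries of the same genotype differed for many of these genes. In 7 of 10 the gap between the WT libraries exceeded the difference between the genotype means on the log2 scale, a share of 70% beside 69.8% of all tested features. CLH1, NYC1 and RCCR were the exceptions. WT replicate 1 was the lowest library for 4 of 10 (NOL, SGR2, PPH and PAO) and for 43.4% of all tested features, and the highest for 3 of 10 (SGRL, RCCR and CLH1), beside 16.2% of all tested features.

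WT replicate 1 also stood apart in genes of darkness and sugar shortage. It was the lowest library for 9 of the 10 listed genes, beside 43.4% of all tested features. Of the 10 genes 0 passed the threshold and 4 had an unadjusted p under 0.05 (5.30% of all tested features). In 5 both OE libraries lay above both WT libraries (13.7%). The 2 with the smallest p were RZPF34, a ubiquitin ligase, at 37.4 and 61.0 TPM in WT against 165 and 197 TPM in OE (limma adjusted p = 0.204), and DIN10, a dark-induced gene, at 64.4 and 219 TPM in WT against 548 and 871 TPM in OE (limma adjusted p = 0.259). The median log2 fold change of the list was 1.61, and its summed level was 436 and 3259 TPM in WT against 3031 and 5588 TPM in OE. Light-harvesting transcripts followed another pattern, with a summed level over 18 genes of 73149 TPM in WT replicate 1 and 68255 TPM in OE replicate 2, against 22654 and 22466 TPM in the other 2 libraries, and 0 of the 17 tested passed. The smallest p in that list were those of LHCB8, at 15.4 and 11.9 TPM in WT and at 10.9 and 6.28 TPM in OE, and LHCB2.3, at 1808 and 131 TPM in WT and at 222 and 524 TPM in OE (limma adjusted p = 1.0 for both). The morning clock gene PRR9 was at 15.1 and 15.6 TPM in WT and at 2.44 and 11.03 TPM in OE, and the evening clock gene ELF3 at 12.5 and 20.5 TPM in WT and at 27.2 and 27.5 TPM in OE (limma adjusted p = 0.784 and 1.0). Among 12 clock genes 0 passed the threshold, with 4 above and 2 below WT in both OE libraries, beside 13.7% and 14.2% of all tested features. The part of these library differences in the values of the breakdown genes was not tested.

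The later steps of the pathway and the handling of phytol gave no member past the threshold. Of 11 genes, all tested, 1 had both OE libraries above both WT libraries and 0 had both below, beside 13.7% and 14.2% of all tested features, with a median log2 fold change of 0.11. The gene above was VTE5, a kinase that salvages free phytol for tocopherol synthesis, at 21.2 and 17.4 TPM in WT and at 30.3 and 38.1 TPM in OE (log2 fold change 0.79, SE 0.362, limma adjusted p = 0.948). HCAR, which completes the conversion of chlorophyll b after NYC1 and NOL, was at 14.1 and 6.64 TPM in WT and at 14.1 and 7.75 TPM in OE, with nearly the same pair of values in each genotype.

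For MES16 and CYP89A9, which modify the colourless catabolites, the WT libraries were far apart. MES16, a demethylase of these catabolites, was at 9.24 and 46.2 TPM in WT and at 58.2 and 24.8 TPM in OE. CYP89A9, which oxidises them to dioxobilins, was at 4.54 and 94.2 TPM in WT and at 28.1 and 20.1 TPM in OE, so the WT libraries enclosed both OE libraries. TIC55, which hydroxylates them in the chloroplast, was at 136 and 161 TPM in WT and at 180 and 85.9 TPM in OE. The dephytylase CLD1, which recycles chlorophyll, was at 123 and 34.8 TPM in WT and at 90.6 and 72.6 TPM in OE. The phytyl phosphate kinase VTE6 was nearly level, at 28.8 to 31.2 TPM over the 4 libraries.

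The remaining genes of that list were phytyl ester synthases and chloroplast membrane proteins that restrain chlorophyll breakdown. PES1 ranged from 7.96 to 17.3 TPM and PES2 from 3.36 to 14.4 TPM, with overlapping groups in both. BCM1 ranged from 91.8 to 167 TPM and BCM2 from 66.2 to 121 TPM, and the groups overlapped there too.

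**Figure D4:**
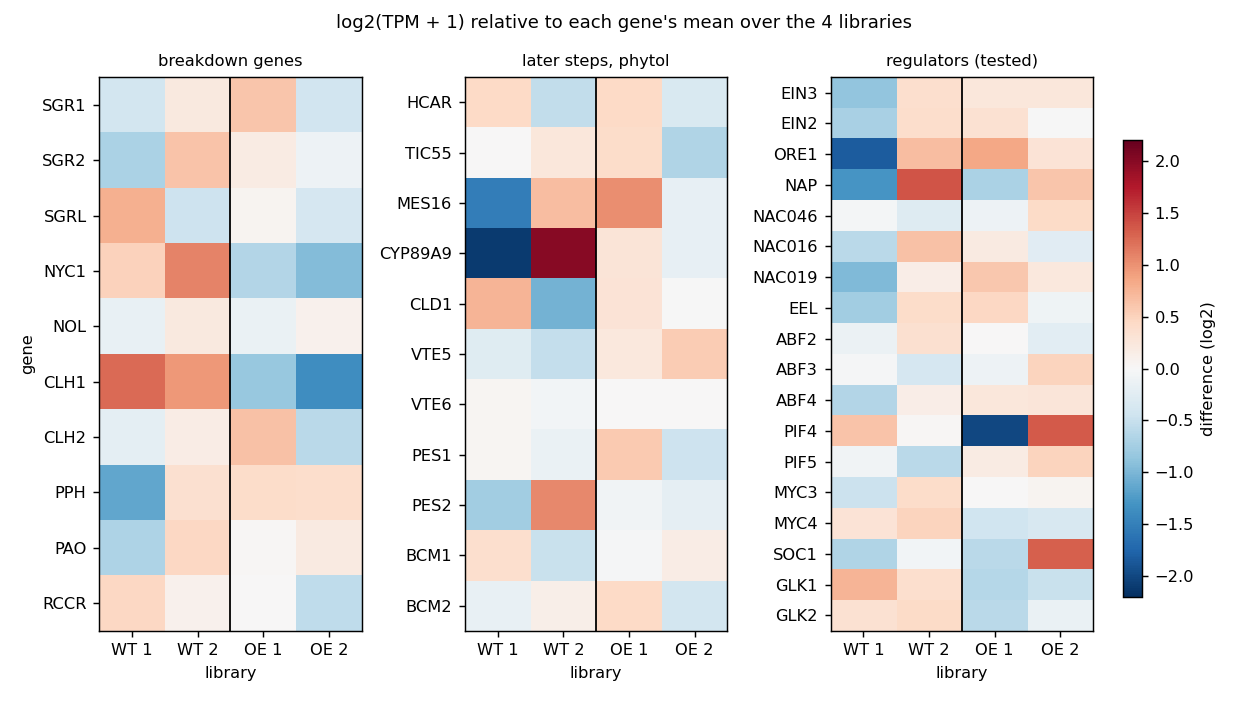
Level of each gene in each library as log2(TPM + 1) minus the gene's mean over the 4 libraries (colour scale, log2 units), for the 10 breakdown genes, the 11 genes of later steps and phytol handling and the 18 tested regulators. Rows are genes and columns are libraries. In CLH1 and NYC1 the vertical line between genotypes separates high from low, whereas in PPH, ORE1 and MES16 the low value is WT replicate 1.

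Of 20 known regulators of chlorophyll breakdown 18 passed the filter, and 0 passed the threshold in either direction, with a median log2 fold change of 0.32. Both OE libraries were above WT in 3 (NAC019, ABF4 and PIF5) and below in 3 (MYC4, GLK1 and GLK2), beside 13.7% and 14.2% of all tested features. GLK1, a factor that promotes chloroplast and chlorophyll synthesis genes, was at 84.8 and 65.2 TPM in WT and at 32.4 and 35.6 TPM in OE (log2 fold change -1.11, SE 0.374, limma adjusted p = 0.583). MYC4, a factor of jasmonate signalling, was at 19.5 and 22.1 TPM in WT and at 11.3 and 11.9 TPM in OE (log2 fold change -0.79, SE 0.349, limma adjusted p = 0.911).

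EIN3 and ORE1, of the ethylene and NAC branch, were lowest in WT replicate 1. That library was the lowest for 10 of the 18 tested regulators, beside 43.4% of all tested features. It was not the lowest for NAC046, at 6.51 and 5.38 TPM in WT and at 6.2 and 9.42 TPM in OE. EIN3, the main factor of ethylene signalling, was at 65.3 and 155 TPM in WT and at 143 and 142 TPM in OE. ORE1, a NAC factor downstream of it that is known to activate breakdown genes, was at 15.9 and 94.9 TPM in WT and at 108 and 73.3 TPM in OE. In both genes WT replicate 2 was near the OE libraries. PIF4, a factor of dark-induced senescence, was at 65.5 and 42.6 TPM in WT and at 9.62 and 108 TPM in OE, the widest gap within OE among the regulators named here. MYC2 and ABI5 were the 2 regulators under the filter.

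Among the 11 tested senescence genes the log2 fold change was positive for 9 and negative for 2. It was positive for 5 of the 10 breakdown genes and for 9657 of all 20010 tested features. SAG12, a protease gene that marks late senescence, was listed at 0 in all 4 libraries. Of 12 listed genes 11 were tested and 0 passed, although 6 had both OE libraries above both WT libraries and 0 had both below, beside 13.7% and 14.2% of all tested features. The median log2 fold change was 0.80, and 5 genes had an unadjusted p under 0.05, beside 5.30% of features. The 2 with the smallest p were WRKY22, at 7.06 and 11.6 TPM in WT against 39.0 and 41.3 TPM in OE (limma adjusted p = 0.122), and SAG20, at 20.3 and 84.3 TPM in WT against 160 and 176 TPM in OE (limma adjusted p = 0.450). For 9 of the 11 WT replicate 1 was the lowest library, beside 43.4% of all tested features.

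In the opposite pathway, chlorophyll synthesis, 22 of 23 genes were tested and 0 passed, beside 0.0900% of all tested features. The median log2 fold change of the list was -0.087. HEMA1, glutamyl-tRNA reductase at the entry to the pathway, was at 371 and 98.5 TPM in WT and at 36.6 and 37.0 TPM in OE (log2 fold change -2.35, SE 0.560, limma adjusted p = 0.259). CHLH, a subunit of magnesium chelatase, was at 749 and 257 TPM in WT and at 336 and 253 TPM in OE. WT replicate 1 was the highest library for 19 of the 22, beside 16.2% of all tested features. The same library was highest for 3 of the 10 breakdown genes and for 4 of the 11 genes of later steps. Among seed genes the storage protein gene CRU3 passed the threshold and was lower in OE, at 10.04 and 25.2 TPM in WT against 0.04 and 0.21 TPM in OE (limma adjusted p = 0.0182). It did not pass without WT replicate 1 or without WT replicate 2, with a pseudocount of 5, with no filter or under either other scaling. The summed level of the 5 seed genes was 53.2 and 50.7 TPM in WT against 0.78 and 10.8 TPM in OE. In 4 of the 5 both OE libraries lay below both WT libraries. CLH1 and NYC1 share this order, as do 14.2% of all tested features. The seed sum was lowest in OE replicate 1, whereas CLH1 and NYC1 were lowest in OE replicate 2. The part of seed tissue in the values of CLH1 and NYC1 was not tested.

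Transcripts with a pattern like that of CLH1 or NYC1 were sought over the 4 libraries among 7138 other tested genes with a symbol and a mean of at least 5 TPM. The measure was the distance between mean-centred log2(TPM + 1) values. Nearest to CLH1 was FSD1, an iron superoxide dismutase, at 646 and 495 TPM in WT and at 130 and 101 TPM in OE (distance 0.170). Then came SOT17, a sulfotransferase of glucosinolate synthesis, at 70.4 and 46.2 against 18.8 and 10.2 TPM, and GH9C2, a glycosyl hydrolase, at 54.6 and 41.3 against 17.6 and 11.6 TPM. All 3 were lowest in OE replicate 2, like CLH1, a likeness that choice by this distance favours. Nearest to NYC1 were TLL1, a lipase-like protein, at 160 and 193 against 63.2 and 44.2 TPM, the expansin EXPA1, at 346 and 396 against 155 and 118 TPM, and CYP710A2, a sterol desaturase, at 23.7 and 43.1 against 8.89 and 8.75 TPM. With 4 libraries many genes have such a pattern, and nearness is a description only.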

How the data were processed

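Messenger RNA of 4 leaf libraries, 2 per genotype, was measured. The authors deposited 1 table of TPM per feature and library, and the tools listed per the submitters' processing notes are fastp, HISAT and RSEM, without version or role. Genome build and annotation: not given in the sources used here. Neither of the authors' 2 mean columns entered a test. The column of WT replicate 2 carries another number and was matched through its label, and no WT column carries the number 2. Depth is unknown, which leaves no counting interval.

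The 20010 features that averaged 1 TPM or more were tested as log2(TPM + 1), a scale that understates changes of low genes, with limma 3.58.1 in R 4.3.3 (variance trend, genotype as the only term, two-sided, threshold 0.05 on the p adjusted by Benjamini-Hochberg across every tested feature). The test was checked on simulated data drawn from its own fitted variances, without offsets between libraries. That check cannot say whether these assumptions hold for the real libraries. Family shares were compared by exact permutation tests. All 32548 nuclear loci matched RefSeq locus tags (TAIR10.1), whose annotation and genome gave names, promoter windows and coding identities (Python 3.11.15, Biopython 1.88; figures with matplotlib 3.10.9).

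The 10 genes and the 13 context lists were chosen with earlier results of these data known. All 10 were named, with ERF4. From each list up to 4 genes past the threshold were named, or else the 2 with the smallest p, and any gene of the later steps or the regulators. For CLH1 and NYC1, which had the smallest p, the 3 genes nearest in pattern were named. PYK10, NRT2.1 and SAG12 were named outside this rule, after their values were seen. No flower marker was tested.

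The 14 alternatives were a filter at 5 TPM or none, pseudocounts of 0.1 and 5, median-ratio scaling, quantile normalization, no organelle features, a robust or untrended prior, a replicate block, and leaving out each library.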

Additional observations from a re-analysis of the deposited data

How the results depend on the processing

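Over all features 18 passed in limma. The number was 63 at a mean of at least 5 TPM, 108 with a robust prior and 0 to 147 with 1 library left out. It was 0 with no filter (1072 features with an unadjusted p under 0.05), quantile normalization (1114), median-ratio scaling (1137) and when WT replicate 1 (1088) or WT replicate 2 (1707) was left out. Of the breakdown genes 0 passed, against 1 (CLH1) at a mean of at least 5 TPM, 2 (CLH1 and NYC1) with a robust prior and 0 to 1 with a library left out (CLH1 without OE replicate 1). Of the context genes 1 passed, against 0 with a pseudocount of 5, no filter, quantile normalization or median-ratio scaling, 4 at a mean of at least 5 TPM, 5 with a robust prior and 0 to 3 with a library left out. With the replicate block 338 features, 2 breakdown genes (CLH1 and NYC1) and 13 context genes passed, in a fit with 1 residual degree of freedom. Numbers name the libraries only, and deviations of same-numbered libraries had a correlation of 0.0325. Over the alternatives that kept all 4 libraries the limma adjusted p ran from 0.000548 to 0.625 for CLH1 and from 0.0461 to 0.793 for NYC1. Neither changed direction in any alternative, and nor did PPH or RCCR. The WT and OE libraries of these genes did not overlap, so leaving out 1 library could not change their sign. With a library left out the log2 fold change ran from -0.23 to 0.13 for NOL, -0.32 to 0.70 for SGR1, -0.59 to 0.73 for SGR2, -0.93 to 0.30 for SGRL, -0.34 to 0.79 for PAO and -0.57 to 0.675 for CLH2, so direction was not fixed there. SGR2 was also at -0.0023 with a pseudocount of 5. The SGR1 share ran from -3.91 to 5.04 percentage points. The median over all features moved to -0.16 without WT replicate 1, and leaving out WT replicate 2 put it at 0.14. Median log2 offsets from the mean over the libraries were -0.168 and 0.187 in WT replicates 1 and 2. In OE replicates 1 and 2 they were 0.0853 and -0.0843. The cause of these shifts and offsets was not tested. With 2 libraries per genotype and unknown depth, small differences could not be resolved.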
